A study of Mus musculus with 4 samples.

Results

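Cytotoxic lymphocytes kill target cells with the contents of specialised granules, and 8 genes of that machinery were followed here through single-cell RNA-seq of mouse lung. They were taken by name: the pore former Prf1, the granzymes Gzma, Gzmb, Gzmk and Gzmm, the granule-associated Nkg7 and Ctsw, and the death ligand Fasl. All 8 had a row in the matrix of 20076 gene symbols. The study deleted the transcription factor ERG from endothelial cells (ECs) and compared 2 mice labelled WT (TM_GL_C) with 2 labelled ERG CKO (TM_GL_E). Both groups were Erg flox/flox C57/BL6 mice, of both sexes by the labels, and both received tamoxifen as 5 injections of 0.5 mg, with lungs collected 90 days later. The ERG CKO mice also carried Cdh5-CreER(T), whose promoter is active in endothelium, so the lymphocytes described below are not the cells in which deletion was directed. The mice's age at collection is not stated in the labels.

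The 4 libraries held 9363 cells, from 1852 to 3097 each, with 11263911 to 18646776 UMIs (unique molecular identifiers, 1 per captured RNA molecule) and medians of 4611 to 4899 UMIs per cell. Between libraries, 7 cell barcodes recurred. Erg was counted at 86.1 and 89.8 CPM (UMIs of the gene scaled to a common total per library and class) in the ECs of the WT libraries and at 106 and 82.8 CPM in those of the ERG CKO libraries. The matrix has 1 value per gene and does not separate a deleted exon from the rest of the transcript, so these levels check nothing about the labels. Erg had 0 UMIs in the natural killer (NK)-like cells and 1 in the memory CD8 T-like cells.

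Perforin opens pores in the membrane of the target cell, and granzymes, which are serine proteases, pass into the cytosol and cleave proteins there. NK cells carry such granules ready for release, while CD8 T cells acquire them after activation and keep different granzymes at different stages of their memory programme. Fas ligand kills by a separate route, by engaging the receptor Fas on the target.

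No cell annotation came with the counts, so classes were rebuilt by clustering, and the names may differ from those of the study. Lymphocyte clusters of 135 cells of low depth (median 1226 UMIs per cell) and of 17 cells with markers of another lineage were left out. T cells, NK cells and innate lymphoid cells (ILC) then made up 1856 cells. Of these, 327 were NK-like (110 and 54 cells in the WT libraries, 65 and 98 in the ERG CKO libraries) and 162 were memory CD8 T-like (27 and 72, then 32 and 31). The 8 NK markers (Ncr1, Klrb1c, Klre1, Klra8, Klra4, Klra9, Klrb1f and Klri2) summed to 4957 to 6498 CPM in NK-like cells, where Cd8a and Cd8b1 together reached at most 2.17 CPM. In memory CD8 T-like cells Cd8a and Cd8b1 summed to 976 to 1565 CPM. The same NK markers summed to 283 to 600 CPM there, with Klra8, Klra4 and Klri2 at 0 in every library. None of the granule genes served as a marker for a name. Of the clusters beside these, 2 stayed unnamed: a T cluster of 120 cells led by Gzmm, Ms4a4c and Yes1, here the Ms4a4c T cluster, and a cluster of 87 cells led by Xcl1, Cd160 and Cd7, here the Xcl1/Cd160 cluster.

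Gzma and Gzmk are neighbours on mouse chromosome 13, both on the minus strand, at chr13:113093825-113100981 and chr13:113171608-113225908 (GRCm38, GENCODE annotation), with 70626 bp between them. Gzmb lies at chr14:56258838-56262260 beside its close relatives Gzmc to Gzmn, with 24181 bp between it and Gzmc. The others are single genes: Gzmm at chr10:79689020-79695261, Prf1 at chr10:61297833-61304680, Nkg7 at chr7:43437073-43438249, Ctsw at chr19:5465043-5468507 and Fasl at chr1:161780689-161788495. Promoter sequence was found for 7 of the 8 in RefSeq (GRCm38.p6), and 3 granzyme promoters are shown, since the results turn on where these 3 transcripts were found. Each is 250 bases on the minus strand ending before the RefSeq start of the gene, outside annotated exons, at chr13:113100982-113101231 for Gzma, chr14:56262335-56262584 for Gzmb and chr13:113180966-113181215 for Gzmk. The Gzmk window lies within the longer GENCODE gene interval. Capitals mark 3 motifs searched on both strands, the T-box letters AGGTGT, the RUNX letters TGTGGT and the ETS letters AGGAAG, so that a match on the other strand appears as the reverse complement.
Gzma: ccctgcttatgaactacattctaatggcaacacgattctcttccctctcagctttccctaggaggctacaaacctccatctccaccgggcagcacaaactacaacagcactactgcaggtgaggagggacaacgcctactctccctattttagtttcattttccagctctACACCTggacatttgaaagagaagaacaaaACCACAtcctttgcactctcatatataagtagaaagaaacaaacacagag
Gzmb: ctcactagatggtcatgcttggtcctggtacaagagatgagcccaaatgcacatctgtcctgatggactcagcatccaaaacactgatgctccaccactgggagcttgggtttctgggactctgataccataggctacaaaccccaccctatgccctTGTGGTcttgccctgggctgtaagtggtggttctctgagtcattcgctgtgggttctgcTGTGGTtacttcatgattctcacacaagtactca
Gzmk: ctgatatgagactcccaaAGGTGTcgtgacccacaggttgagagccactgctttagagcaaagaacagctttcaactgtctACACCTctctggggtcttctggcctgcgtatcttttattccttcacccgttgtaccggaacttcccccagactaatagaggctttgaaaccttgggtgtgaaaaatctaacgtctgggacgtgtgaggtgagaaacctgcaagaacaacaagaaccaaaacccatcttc
T-box and RUNX factors are known regulators of cytotoxic lymphocyte genes, and ERG belongs to the ETS family. The Gzma window holds 1 T-box and 1 RUNX match, the Gzmb window 2 RUNX matches and the Gzmk window 2 T-box matches, and none of the 3 holds the ETS letters. The other 4 genes with promoter sequence each have the ETS letters in a window, 2 times in Prf1 and 1 time in Gzmm, Nkg7 and Fasl. A further Gzmm window, at chr10:79693576-79693825, holds no match of any of the 3 motifs. Of 32851 mouse promoter windows, 11.8% hold the T-box letters, 14.0% the RUNX letters and 29.5% the ETS letters. These are matches of letters and not measured binding.

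Prf1, perforin, was largely an NK-like transcript. It stood at 380 and 386 CPM in NK-like cells of the WT libraries and at 427 and 378 CPM in those of the ERG CKO libraries. Memory CD8 T-like cells had 49.2 and 56.0 CPM in WT and 35.3 and 49.6 CPM in ERG CKO libraries, and the Xcl1/Cd160 cluster followed with a mean of 14.5 ± 6.29 CPM (SD, n = 4 libraries). The libraries of these classes did not overlap, apart from the Xcl1/Cd160 cluster and the classes after it. NK-like cells held 79.2% of all Prf1 UMIs in the matrix and memory CD8 T-like cells 4.95%. These levels describe classes that were cut from the same counts, so no test was made between classes.

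**Figure D1:**
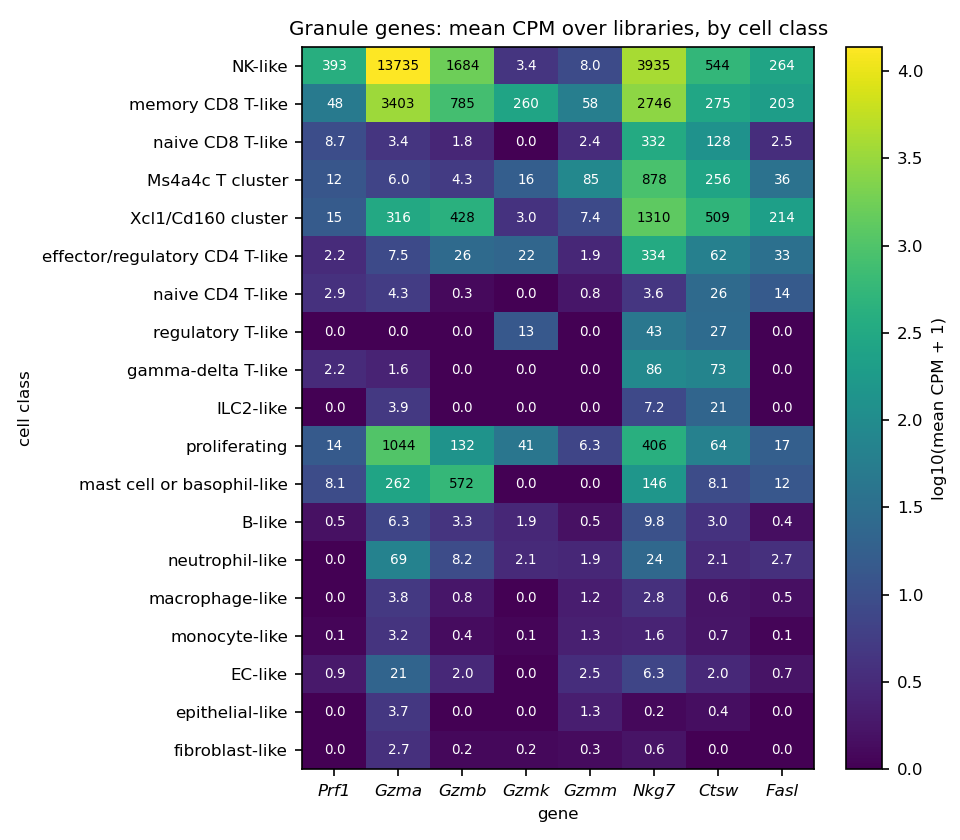
Mean CPM of the 8 granule genes over libraries in each cell class, shaded as log10(mean CPM + 1), with genes along the x axis and classes along the y axis. Brighter shades are higher values. Prf1 and Gzma are highest in NK-like cells (means of 393 and 13735 CPM), Gzmk in memory CD8 T-like cells (260 CPM) and Gzmm in the Ms4a4c T cluster (84.9 CPM).

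Gzma, granzyme A, a tryptase, reached 13282 and 13374 CPM in NK-like cells of the WT libraries and 15924 and 12361 CPM in those of the ERG CKO libraries. In memory CD8 T-like cells it stood at 6200 and 2593 CPM in WT and at 2292 and 2529 CPM in ERG CKO libraries. WT replicate 1 was thus far above the other 3 libraries, which lay close together. The proliferating cluster came next with 222 to 2183 CPM, and its range overlapped that of the Xcl1/Cd160 cluster. NK-like cells held 80.1% of the Gzma UMIs and memory CD8 T-like cells 8.66%.

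Gzmb, granzyme B, which cleaves caspases and their substrates, was less restricted. NK-like cells had 1653 and 1708 CPM in WT and 2038 and 1337 CPM in ERG CKO libraries. Memory CD8 T-like cells had 1210 and 834 CPM in WT and 423 and 672 CPM in ERG CKO libraries, all below every NK-like value. Their range overlapped that of the basophil-like class (mean 572 ± 292 CPM, n = 3 libraries with such cells), followed by the Xcl1/Cd160 cluster (428 ± 346 CPM, n = 4). NK-like cells held 66.7% of the Gzmb UMIs and memory CD8 T-like cells 15.2%. Gzmb has close relatives on chr14, whose sequences were not compared here, and how reads shared among them were counted is uncertain.

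Gzmk, granzyme K, a tryptase associated with memory T cells, had the reverse distribution. Memory CD8 T-like cells had 295 and 188 CPM in WT and 347 and 209 CPM in ERG CKO libraries, and no other class overlapped them. NK-like cells had 2 and 3 UMIs in the WT libraries and 0 in both ERG CKO libraries, where the floor of 3 counts was not passed. Only 5 of 327 NK-like cells (1.53%, Wilson 95% interval 0.655 to 3.53%) had a Gzmk UMI. Memory CD8 T-like cells held 56.9% of the Gzmk UMIs and the proliferating cluster 21.4%. Among naive CD8 T-like cells none of 422 had a Gzmk UMI, and a count of 0 allows a share of cells with such a UMI of up to 0.711% (3 counts of 422), which is no limit on cells that express the gene. Intervals and floors cover counting error only.

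Gzmm, granzyme M, was a low-count gene in each class. It averaged 84.9 ± 44.4 CPM in the Ms4a4c T cluster and 58.4 ± 24.8 CPM in memory CD8 T-like cells (n = 4 libraries each), and these ranges overlapped. Gzmm was the first of the leading genes of the Ms4a4c T cluster, but no granule gene was among the genes used for clustering. NK-like cells had 12.0 and 6.76 CPM in WT and 6.52 CPM in both ERG CKO libraries, from 2 to 7 UMIs. The Ms4a4c T cluster held 36.5% of the Gzmm UMIs, memory CD8 T-like cells 18.9% and NK-like cells 5.62%. Granzyme M is known from NK cells, whose share of its UMIs here was below that of both T classes.

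Nkg7, a granule membrane protein needed for efficient degranulation, was also common in naive CD8 T-like cells, where granzyme UMIs were rare. It had 3396 and 4028 CPM in NK-like cells of WT and 4037 and 4277 CPM in those of ERG CKO libraries, and 2286 to 3118 CPM in memory CD8 T-like cells. The Xcl1/Cd160 cluster (1310 ± 261 CPM), the Ms4a4c T cluster (878 ± 202 CPM) and naive CD8 T-like cells also had it, and 77.5% of the 422 naive CD8 T-like cells had an Nkg7 UMI against 2.61% for Gzma. Ctsw, cathepsin W, a papain-like protease of unclear function in killing, spread in a like manner. Its NK-like level (443 to 623 CPM) overlapped that of the Xcl1/Cd160 cluster (488 to 530 CPM), while memory CD8 T-like cells (237 to 300 CPM) overlapped the Ms4a4c T cluster. Naive CD8 T-like cells held 16.4% of its UMIs. Fasl, Fas ligand, stood at 237 to 298 CPM in NK-like cells, 170 to 314 CPM in the Xcl1/Cd160 cluster and 112 to 305 CPM in memory CD8 T-like cells, and these 3 classes overlapped. The Ms4a4c T cluster followed at 35.9 ± 15.6 CPM.

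**Figure D2:**
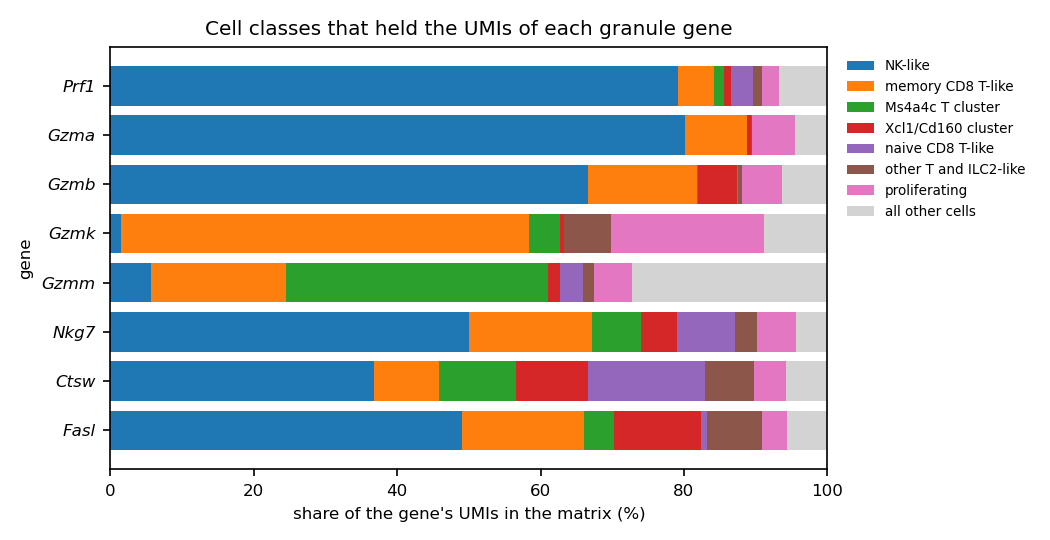
Share of each granule gene's UMIs in the whole matrix (x axis, percent) held by each cell class, 1 stacked bar per gene (y axis). NK-like cells hold 79.2% of Prf1 and 80.1% of Gzma but 1.47% of Gzmk and 5.62% of Gzmm, while memory CD8 T-like cells hold 56.9% of Gzmk.

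Per cell, detection in NK-like cells ranged from every cell to almost none. Of the 327 cells, all 327 had an Nkg7 UMI, 323 Gzma, 291 Gzmb, 289 Ctsw, 256 Prf1, 227 Fasl, 11 Gzmm and 5 Gzmk. The median NK-like cell carried 64, 69, 67 and 58.5 Gzma UMIs in WT 1, WT 2, ERG CKO 1 and ERG CKO 2. Together the 8 genes took 1.92 to 2.33% of all UMIs of NK-like cells, against 0.588 to 1.14% in memory CD8 T-like cells. Shares of cells with a UMI depend on depth, and RNA free in the suspension gives UMIs in cells that do not express a gene. B-like cells, which should lack Gzma, had a UMI of it in 0.797 to 3.61% of cells at medians of 3942 to 5088 UMIs per cell, close to the depth of NK-like (4526) and memory CD8 T-like cells (4459). After thinning each cell to 1000 UMIs these B-like shares were 0 to 1.58%, and 0 in the epithelial cells of each library. Before thinning, the epithelial share was highest in ERG CKO replicate 2, at 15.8% of 19 cells with a median of 20043 UMIs.

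Memory CD8 T-like cells were a mixture with respect to granzymes. Of the 162 cells, 78 had Gzma, 103 Gzmb and 72 Gzmk UMIs. Cells with Gzma nearly always had Gzmb, 92.3% against 36.9% of the cells without Gzma, and this order held in each of the 4 libraries. Gzmk went the other way. Gzmb was found in 52.8% of cells with Gzmk and in 72.2% of those without it, again in the same order in each library, although cells with Gzmk were the deeper ones (median 4827 against 4264 UMIs). Counted together, 38 cells had Gzmk and Gzmb, 34 Gzmk without Gzmb, 65 Gzmb without Gzmk and 25 neither. A cell with no UMI of a low gene may still express it, so these counts are of detection.

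**Figure D3:**
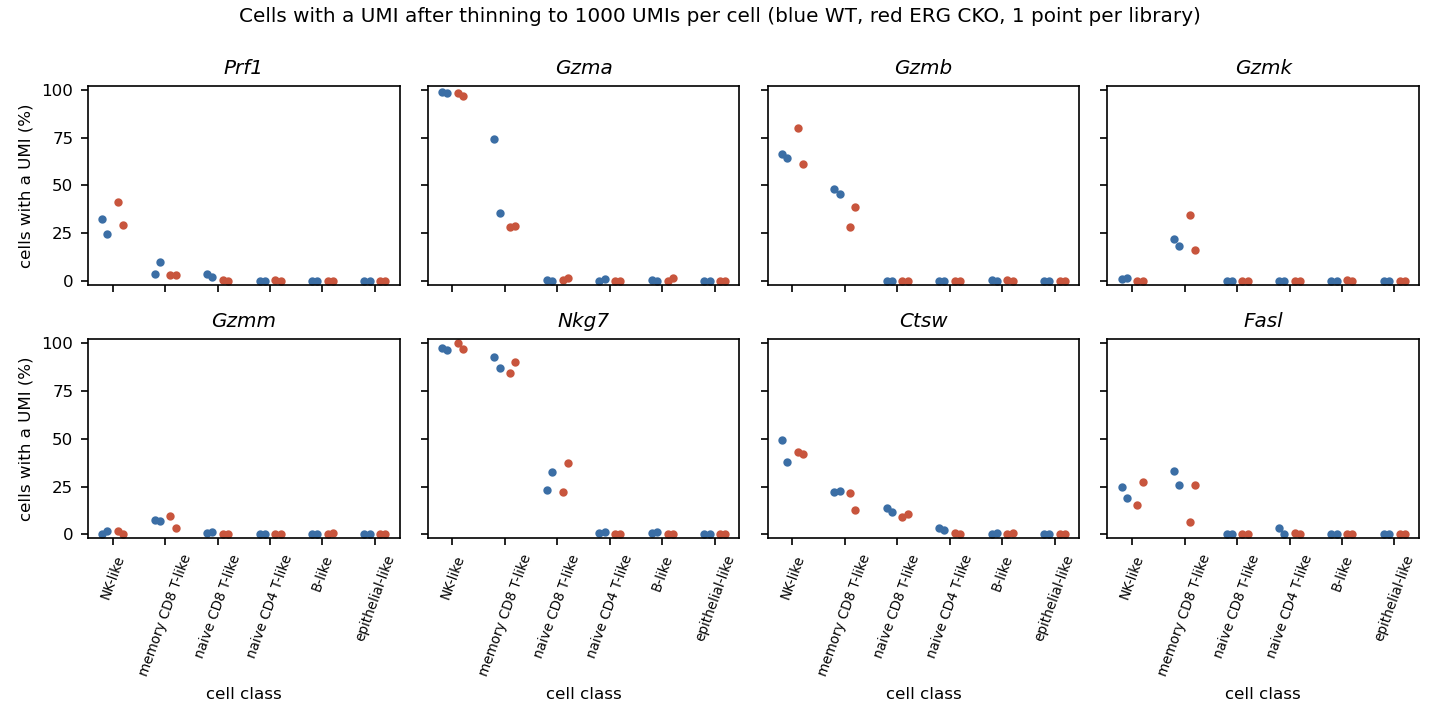
Share of cells with a UMI of each granule gene (y axis, percent) after thinning each cell to 1000 UMIs, by cell class (x axis), 1 point per library (blue WT, red ERG CKO). For Gzma in memory CD8 T-like cells WT replicate 1 stands at 74.1% and the other 3 libraries between 28.1 and 35.7%, while B-like cells reach at most 1.58%.

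The pattern of each granule gene over classes was compared with that of every other gene, over 84 sums of 22 classes and 4 libraries, by Pearson's r of log2(CPM + 10). These points share libraries and depth, and r is given as a description. Nearest to Prf1 were Klra3 (0.88), Ncr1 (0.87) and Eomes (0.87), to Gzma Klre1 (0.90), Tbx21 (0.83) and Ncr1 (0.83), and to Gzmb Klre1 (0.90), Tbx21 (0.88) and Klrb1c (0.84). Most of these are NK receptors or the T-box factors T-bet (Tbx21) and Eomes. Gzmk had its nearest genes elsewhere, in Mt3 (0.82), Kremen2 (0.73) and Gm16702 (0.72), and Gzmm in Crtam (0.71), Cd8a (0.70) and Eomes (0.69). Nkg7 was nearest to Cst7 (0.92), Ccl5 (0.90) and Il2rb (0.88), Ctsw to Gm19585 (0.92), Il2rb (0.91) and Sh2d2a (0.91), and Fasl to Klrc2 (0.94), Tbx21 (0.93) and Klrc1 (0.92). Among the members themselves Gzma and Gzmb were close (r = 0.93) and Gzmk and Prf1 far apart (r = 0.38).

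The comparison the design implies is whether the granule programme of lung lymphocytes differed between mice with and without endothelial ERG. UMIs were summed per library and class and tested with edgeR's quasi-likelihood test with Benjamini-Hochberg adjustment over all genes, and the threshold for calling a gene was an adjusted p of 0.05. With 2 mice a group the p-values measure the spread between these 4 libraries. Groups that do not overlap are a description only. Random labels would separate 2 against 2 libraries with a probability of 0.333, and the share of all genes that did not overlap was not counted. In NK-like cells no granule gene was called, and the groups overlapped for Gzma, Gzmb, Prf1 and Fasl. Gzma, from the levels given above, differed by a log2 fold change (ERG CKO over WT) of 0.08 (SE 0.11, adjusted p = 0.948), with one ERG CKO library above and one below both WT libraries. Gzmb stood likewise on either side of WT, with SE 0.17 and a 95% interval of -0.37 to 0.37. Prf1 differed by 0.07 (SE 0.17) and Fasl by 0.05 (SE 0.18).

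Ctsw was at 533 and 443 CPM in WT and at 623 and 576 CPM in ERG CKO libraries, and these ranges did not overlap (log2 fold change 0.28, SE 0.16, unadjusted p = 0.101, adjusted p = 0.822). Nkg7 also did not overlap, although one WT library was just below the lower ERG CKO library (0.16, SE 0.11, adjusted p = 0.856). Gzmk and Gzmm had too few UMIs in NK-like cells to be tested. None of the 6 granule genes tested had an unadjusted p under 0.05, and across all genes 0% of 4812 were called by edgeR, with 328 at an unadjusted p under 0.05 and 2 called by DESeq2. The unadjusted 95% interval was 0.894 to 1.26-fold for Gzma, 0.772 to 1.30-fold for Gzmb, and 0.957 to 1.54-fold for Ctsw. The median over the 6 was 0.08 on the log2 scale, beside 0.01 over all genes tested. Without ERG CKO replicate 2, Gzma was called higher (0.27, adjusted p = 0.0018), so that this one library decided the call.

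**Figure D4:**
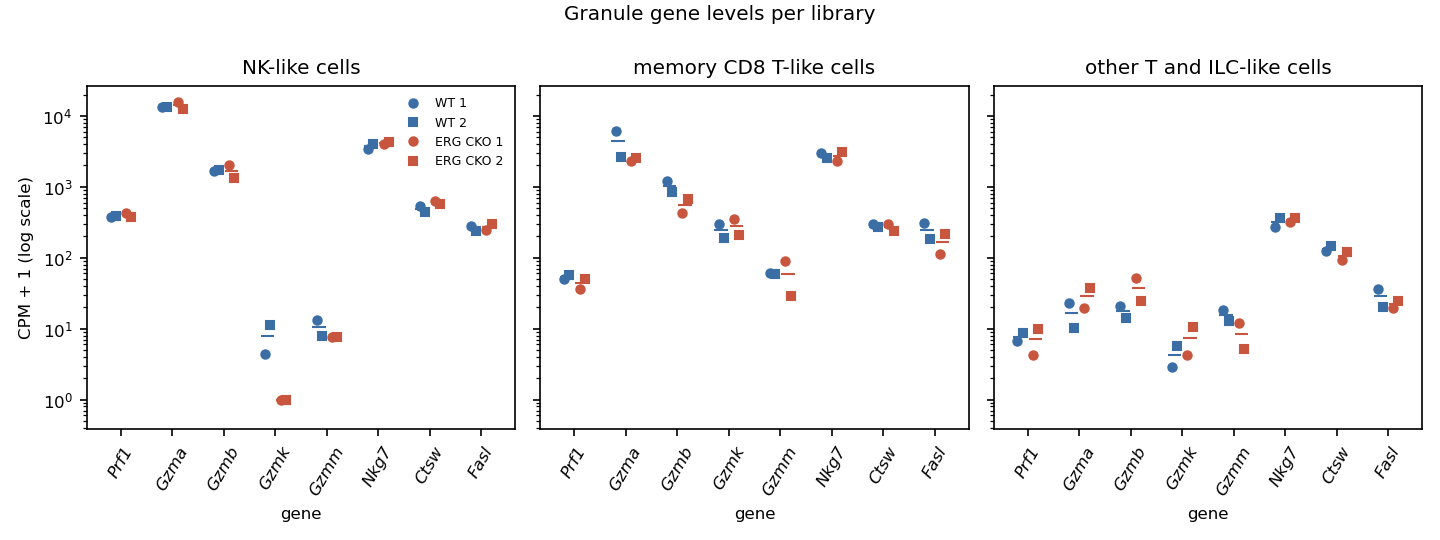
Granule gene levels per library as CPM + 1 on a log scale (y axis), genes along the x axis, 1 point per library (WT and ERG CKO), in NK-like cells, memory CD8 T-like cells and other T cells and ILC. NK-like points overlap between groups for Gzma (12361 to 15924 CPM), whereas in memory CD8 T-like cells both WT points for Gzmb (834 and 1210 CPM) lie above both ERG CKO points (423 and 672 CPM).

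In memory CD8 T-like cells Gzma and Gzmb were lower in the ERG CKO libraries without passing the test. From the levels given above, Gzma differed by -0.81 (SE 0.25, unadjusted p = 0.0022, adjusted p = 0.467, 95% interval -1.31 to -0.31) and Gzmb by -0.85 (SE 0.26, unadjusted p = 0.0020, adjusted p = 0.467, -1.37 to -0.33). The WT and ERG CKO libraries did not overlap for either gene, but for Gzma the gap between WT replicate 2 and ERG CKO replicate 2 was small, 2593 against 2529 CPM. Gzmk (0.29, SE 0.31), Gzmm (-0.06, SE 0.51), Nkg7 (-0.02, SE 0.21), Ctsw (-0.06, SE 0.29) and Fasl (-0.45, SE 0.32) overlapped between groups, and Prf1 had too few UMIs to be tested. Of the 7 granule genes tested 0 were called, by edgeR or by DESeq2, and 2 had an unadjusted p under 0.05. Of all 2559 genes 0.0391% were called. The median over the 7 was -0.06, beside 0.01 over all genes. As a sum, markers of naive T cells were higher in the ERG CKO libraries of this class, opposite to Gzma and Gzmb. Of these, 6 markers (Ccr7, Lef1, Tcf7, Dapl1, Igfbp4 and Satb1) summed to 256 and 199 CPM in WT and to 441 CPM in both ERG CKO libraries, which did not overlap, against 2940 to 3199 CPM in naive CD8 T-like cells. Within the memory CD8 T-like class 4 and 5 of the 6 had a UMI in the WT libraries and 5 in each ERG CKO library, with Dapl1 at 0 in both WT libraries and Igfbp4 at 0 in both ERG CKO libraries and in WT replicate 1. The 8 memory T cell markers summed to 3572 and 3841 CPM in WT and to 3820 and 4396 CPM in ERG CKO libraries, which overlapped. Cd8a and Cd8b1 summed to 1565 and 1403 CPM in WT and to 976 and 1322 CPM in ERG CKO libraries, which did not overlap. The part of naive-marker or CD8 transcripts in the result was not tested.

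These values moved with a few libraries and with which cells made up the class. Without WT replicate 1, Gzma differed by -0.17, and without WT replicate 2 by -1.26 with an adjusted p of 1.5e-10. Cells of the class with any UMI of an NK marker were 15 of 27 and 33 of 72 in WT and 12 of 32 and 10 of 31 in ERG CKO libraries. When they were left out, Gzma differed by -0.26 (SE 0.45) and Gzmb by -0.25 (SE 0.31). Killer receptors are also found on memory CD8 T cells, and the part of NK-marker cells in the result was not tested. When clusters were made without aligning the libraries, Gzma (-1.46, adjusted p = 1.2e-04) and Gzmb (-1.17, adjusted p = 0.0104) were both called lower. In that fit 8 of all 2640 genes were called. Of the memory CD8 T-like cells, 20 of 27 had a Gzma UMI in WT replicate 1, 29 of 72 in WT replicate 2, 15 of 32 in ERG CKO replicate 1 and 14 of 31 in ERG CKO replicate 2. In summed counts of a class, fewer cells with a transcript and less of it per cell cannot be told apart.

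**Figure D5:**
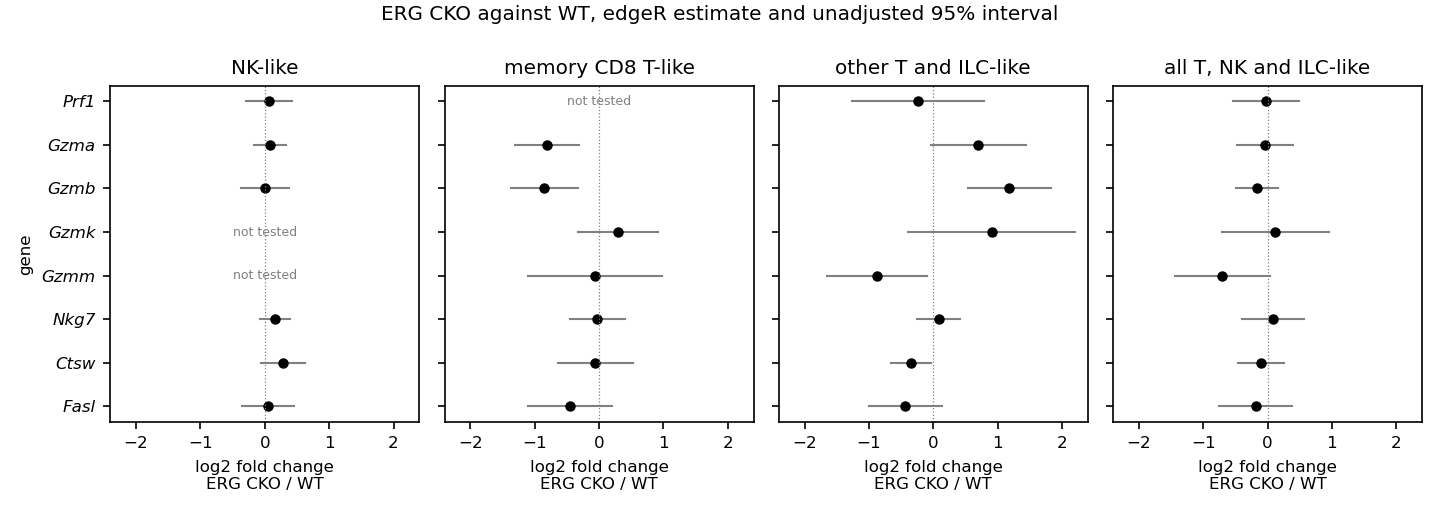
edgeR log2 fold change of ERG CKO over WT (x axis) with its unadjusted 95% interval for each granule gene (y axis), in each group of cells. NK-like estimates lie between 0.00024 and 0.28, and in memory CD8 T-like cells Gzma (-0.81) and Gzmb (-0.85) lie furthest from 0.

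Whether the NK-like and memory CD8 T-like differences themselves differed was tested in 1 fit with the mouse as a factor. The NK-like difference exceeded the memory CD8 T-like one by 0.79 for Gzma (SE 0.29, unadjusted p = 0.0106) and by 0.82 for Gzmb (SE 0.31, unadjusted p = 0.0125), each with an adjusted p of 0.686. Gzmk also had an unadjusted p under 0.05, but with 0 UMIs in both ERG CKO libraries of NK-like cells its fitted value is no bound. None of the 8 was called, beside 0.169% of 4736 genes. Gzma was called with library size alone as the scaling (0.80), and Gzmb without ERG CKO replicate 2 (1.53). Leaving out 1 library moved Gzma between 0.25 (without WT replicate 1) and 1.35 (without WT replicate 2), and took Gzmb down to 0.16 (without ERG CKO replicate 1).

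Other T cells and ILC numbered 401 and 284 in the WT pair against 432 and 250 in the ERG CKO pair, and held few granzyme UMIs. Gzmb was at 19.8 and 13.3 CPM in WT and at 49.98 and 23.8 CPM in ERG CKO libraries, which did not overlap (1.18, SE 0.30, unadjusted p = 0.0014, adjusted p = 0.278). Of the 138 Gzmb UMIs of ERG CKO replicate 1, 94 were in 1 cell. That cell, of the Xcl1/Cd160 cluster, also held 108 Gzmc UMIs, 16 UMIs of NK markers and 16 of Cd3e, Cd3d, Cd3g or Trac, and was not called a doublet. Leaving out the top cell of each gene in each library gave 0.65 (adjusted p = 0.831), and thinning to 1000 UMIs 0.38. Gzmm was at 17.5 and 11.8 CPM in WT and at 10.9 and 4.17 CPM in ERG CKO libraries (-0.87, SE 0.36, unadjusted p = 0.0294, adjusted p = 0.819). Ctsw was at 124 and 143 CPM in WT and at 93.1 and 120 CPM in ERG CKO libraries (-0.35, SE 0.15, unadjusted p = 0.0311, adjusted p = 0.819). For both genes the groups did not overlap. Without 1 library Gzmm ranged from -1.83 (without ERG CKO replicate 1) to -0.45 (without ERG CKO replicate 2), and Ctsw from -0.52 (without ERG CKO replicate 2) to -0.17 (without ERG CKO replicate 1). Of the 8 granule genes 0 were called, by edgeR or DESeq2, and 3 had an unadjusted p under 0.05. Of all 8594 genes 0.0698% were called. Gzma, Gzmk, Prf1, Nkg7 and Fasl overlapped between groups, with log2 fold changes from -0.43 for Fasl to 0.91 for Gzmk. Leaving out 1 library moved Gzmk between 0.084 and 1.66 and Gzma between 0.19 and 1.47. With a replicate block 115 of all 8594 genes were called, against 6 in the main fit. With low-count genes kept, 78 of 14991 were called. Gzmb was among the genes called under both alternatives (1.17 with the block, adjusted p = 2.2e-05). It was also called without ERG CKO replicate 2 (1.57) and stood at 0.49 without ERG CKO replicate 1, where Gzma was called instead (1.17, adjusted p = 0.0074).

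Over all T cells, NK cells and ILC together none of the 8 granule genes was called by edgeR or DESeq2 and none had an unadjusted p under 0.05, beside 0.0108% of 9232 genes called. Gzmm came closest, at 17.8 and 17.7 CPM in WT and 14.5 and 6.46 CPM in ERG CKO libraries (-0.70, SE 0.33, unadjusted p = 0.0606). It was called without ERG CKO replicate 1 (-1.50), and Fasl was called without ERG CKO replicate 2 (-0.74). Here Gzma was at 2499 and 1883 CPM in WT and 1644 and 2673 CPM in ERG CKO libraries, in the same order as the share of NK-like cells among them, 20.4 and 13.2% in the WT pair against 12.3 and 25.9% in the ERG CKO pair.

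NK-like cells were 4.86 and 2.51% of all cells in the WT libraries and 2.10 and 5.29% in the ERG CKO libraries, so that each group held one high and one low library (mean difference 0.01 percentage points, exact two-sided permutation test, p = 1.0). Memory CD8 T-like cells were 1.19 and 3.35% in the WT pair against 1.03 and 1.67% in the ERG CKO pair (mean difference -0.917 percentage points, exact permutation p = 0.667). With 2 libraries a group this test cannot give a p below 0.333.

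Other genes of the same machinery were followed in lists by role, and none of their members was called in NK-like, memory CD8 T-like or other T cells and ILC, in all of them together, or in the interaction. In NK-like cells 9 of the 10 genes of granule maturation and release were tested, with Srgn, the proteoglycan of the granule core, at 1015 and 987 CPM in WT and 874 and 879 CPM in ERG CKO libraries (-0.20, SE 0.13). Cst7, the granule cystatin, was at 201 to 245 CPM (0.13, SE 0.18). Among the granzyme inhibitors 3 of 4 were tested. Serpinb9, the inhibitor that protects cells from granzyme B, was at 1048 and 1072 CPM in WT and at 1272 and 1170 CPM in ERG CKO libraries (0.20, SE 0.13), and Serpinb6b at 896 and 903 CPM against 779 and 761 CPM (-0.23, SE 0.13).

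Srgn, Serpinb9 and Serpinb6b did not overlap between the groups, and the share of all genes without overlap was not counted. None of the 3 passed the test, beside the 0% of genes called in NK-like cells. In the list of death receptors, their signalling and other ligands, Casp8 was tested (0.26, SE 0.22). Of the effector cytokines 5 of 6 were tested, Ccl5 at 19106 to 26088 CPM (0.14, SE 0.12) and Ccl4 at 1057 to 1850 CPM (-0.30, SE 0.20). The lineage regulators gave 7 of 8 tested, with Id2 at 0.08 (SE 0.15) and Runx3 at -0.26 (SE 0.18). Among these Zeb2, a regulator of late NK and effector T cell maturation, had 201 and 179 CPM in WT and 284 and 330 CPM in ERG CKO libraries (0.68, SE 0.18, unadjusted p = 0.0025, adjusted p = 0.506), and is named after its values were seen. It was the 1 gene of these lists with an unadjusted p under 0.05 in NK-like cells. Of the receptors 10 of 13 were tested, with Klrd1 at 0.08 (SE 0.12) and Klrk1 at 0.29 (SE 0.14).

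In memory CD8 T-like cells the lineage regulators tested, 6 of 8, had a median log2 fold change of -0.57, beside 0.01 over all genes, and 2 of them had an unadjusted p under 0.05. The effector cytokines (3 of 6 tested, median -0.56) and the receptors (8 of 13 tested, median -0.44) were about as low. In the ERG CKO libraries the naive T cell markers, given above, summed higher and the share of cells with an NK marker was lower. Their part in these values was not tested. T-bet (Tbx21), named after its values were seen, stood at 98.4 and 92.4 CPM in WT and at 17.6 and 66.1 CPM in ERG CKO libraries (-1.15, SE 0.47, unadjusted p = 0.0203, adjusted p = 0.880). The class had 170138 UMIs in ERG CKO replicate 1, so the Tbx21 level there rests on very few UMIs. Runx3 was at 295 and 277 CPM in WT and at 188 and 187 CPM in ERG CKO libraries (-0.60, SE 0.29, adjusted p = 0.956). Neither overlapped between groups, and neither was called. Over all lists beside the granule genes, 6 had an unadjusted p under 0.05 in memory CD8 T-like cells, of which Lamp1 was higher (0.83) and Ccl4, Tbx21, Runx3, Klrk1 and Slamf7 were lower (-0.57 to -1.15), and 4 in other T cells and ILC, among them the granzyme inhibitor Serpinb6b (0.71, adjusted p = 0.157). Over all genes tested, 128 of 2559 in memory CD8 T-like cells and 496 of 8594 in other T cells and ILC were under that unadjusted p. Tbx21 was also among the nearest genes of Gzma and Gzmb over classes, as described above.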

How the data were processed

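Droplet-based single-cell RNA-seq libraries of lung cells were made from 4 mice (2 labelled WT, 2 labelled ERG CKO). The authors deposited 1 matrix of UMI counts per gene and cell, not normalized. The submitters' processing notes name Cell Ranger 3.1.0 and mm10. The matrix holds more cells than the study kept after quality filtering, whose thresholds are not given in the sources used here. Library totals were 11263911 to 18646776 UMIs.

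Cells were clustered with Seurat 5.3.0 (canonical correlation alignment), and lymphocytes were clustered again. A cluster took a name from at least 3 detected markers. Scrublet (scanpy 1.11.5) called 60 cells (0.641%) as doublets, which were kept, and leaving them out was an alternative. UMI counts were summed per library and class, scaled to CPM for description, and tested in R 4.3.3 with edgeR 4.0.16 (TMM, filterByExpr, quasi-likelihood) and, as an alternative, DESeq2 1.42.0. The interaction was fitted with the mouse as a factor. Standard errors were the absolute log2 fold change over the square root of F. The code was tested on simulated data. Promoters came from RefSeq tables of GRCm38.p6.

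The members, marker lists and gene lists were chosen with earlier results of these data known. Named genes were all 8 members, per list the called genes and the 2 with the highest mean CPM in NK-like cells, and the 3 genes most like each member. A result that the rule for lists would name is not reported here. Other granzymes than Gzmc and Gzmf, and Cd244a, were not analysed here. Alternatives were other scaling, filter, clustering resolution, no alignment, classes by marker UMIs, doublets or cells over 10% mitochondrial UMIs left out, thinning to 1000 UMIs, the top cell left out and each library left out. Alternatives without NK-marker cells, without Cd3 or Trac cells, and with the Ms4a4c T cluster added were chosen after seeing the data.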

Additional observations from a re-analysis of the deposited data

How the results depend on the processing

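Of 527 log2 fold changes of granule genes under the alternatives, 464 kept their direction and side of the threshold, 12 kept their direction and passed the threshold, and 51 changed sign, 28 of them among the 148 that left out 1 library. The largest of the other sign changes was 0.19 in size. In NK-like cells Gzmb turned to -0.0022 with library size alone, -0.0046 without the filter, -0.018 with the replicate block and -0.018 at resolution 1.2, to -0.047 without alignment, -0.13 by marker UMIs, -0.068 without doublets and -0.063 after thinning. Gzma turned to -0.065 by marker UMIs and -0.0037 after thinning, Prf1 to -0.0074 without alignment and -0.062 by marker UMIs, Ctsw to -0.19 after thinning, and Fasl to -0.026 by marker UMIs, -0.0052 without doublets and -0.079 after thinning. In memory CD8 T-like cells Nkg7 turned to 0.17 by marker UMIs, 0.046 after thinning, 0.012 without the top cell, 0.025 without NK-marker cells and 0.19 with the Ms4a4c T cluster added. In all T, NK and ILC together Prf1 turned to 0.012 by marker UMIs and 0.0068 without the top cell. The cause of these changes was not tested.

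Granule genes called rose from 0 to 2 in memory CD8 T-like cells without alignment, to 1 in other T cells and ILC without the filter or with the replicate block, and to 1 in the interaction with library size alone. Leaving out 1 library turned these fold changes: in NK-like cells Gzma ran from -0.14 to 0.27, Gzmb from -0.36 to 0.29, Prf1 from -0.046 to 0.17 and Fasl from -0.11 to 0.18. In memory CD8 T-like cells Gzmk ran from -0.092 to 0.60, Gzmm from -1.08 to 0.54, Nkg7 from -0.28 to 0.21 and Ctsw from -0.21 to 0.088. In other T cells and ILC Prf1 ran from -0.99 to 0.44, Nkg7 from -0.14 to 0.35 and Fasl from -0.73 to 0.056. In all together Gzma ran from -0.38 to 0.25, Gzmk from -0.50 to 1.03, Prf1 from -0.49 to 0.36, Nkg7 from -0.33 to 0.40, Ctsw from -0.32 to 0.11 and Fasl from -0.74 to 0.24. In the interaction Gzmm ran from -1.09 to 0.49 and Nkg7 from -0.034 to 0.43. Leaving out 1 library gave 0 to 1 called in each of the 5 fits. With 1 library left in a group, the fit assumes that it varies like the other group. Over all genes, calls ran from 0 to 32 in NK-like cells, 0 to 12 in memory CD8 T-like cells, 2 to 115 in other T cells and ILC, 1 to 116 in all together and 3 to 11 in the interaction, the most in other T cells and ILC (115) with the block. Replicate numbers were shared by the groups but nothing in the labels ties them to a litter or day. Same-numbered libraries' deviations correlated at 0.14 to 0.20 over 2 pairs, which is too few to treat as pairing.

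Leaving out 1 library moved the NK share of all cells, ERG CKO minus WT, from -1.59 to 1.61 percentage points and of T, NK and ILC cells from -4.52 to 9.05, and the memory CD8 share from -1.995 to 0.161 and from -10.4 to 2.10. The memory CD8 T-like comparison rests on 27 to 72 cells a library, and Gzmk and Gzmm had 14 or fewer UMIs each in NK-like cells.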

Other observations

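Granule transcripts were also found outside the classes compared. In the basophil-like class of 34 cells, named from markers such as Mcpt8 (a granule protease of basophils, in 21 cells), 12 cells had Gzmb UMIs (35.3%, Wilson 95% interval 21.5 to 52.1%), 87 in all with 37 in the top cell. Of these 12 cells 11 had no UMI of an NK marker, Cd3e, Cd3d, Cd3g or Trac, and none was called a doublet. Of the 65 Gzma UMIs of the class, 64 were in 1 cell. Gzmc, a relative of Gzmb, had 170 UMIs in the matrix, of which 119 lay in 3 cells of the Xcl1/Cd160 cluster of ERG CKO replicate 1 and 35 in basophil-like cells.

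In the proliferating cluster of 104 cells, 1673 Gzma UMIs lay in 20 cells. The 36 cells with a UMI of Cd3e, Cd3d, Cd3g or Trac held 1189 of them, the 8 cells with an NK marker and none of these held 481, and the other 60 cells held 3. All 73 Gzmk UMIs of the cluster lay in 10 cells, each with a UMI of Cd3e, Cd3d, Cd3g or Trac. Among neutrophil-like cells 91 of 98 Gzma UMIs lay in 1 cell, and among 2531 ECs 140 and 60 of 261 lay in 2 cells.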
